A study of Ictalurus punctatus with 24 samples.

Results

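A set of 140 transcripts separated the intestine libraries of channel catfish, *Ictalurus punctatus*, into 6 in which they were abundant (called anterior-like here) and 6 in which they were scarce (posterior-like). The intestine libraries had been seen to fall into these groups in an earlier analysis of the same counts, and the labels say nothing of which stretch of intestine was sampled. Members were chosen from CPM (the count of a feature scaled to the total of its library). A member had a mean of 20 CPM or more in the anterior-like libraries, a mean log2(CPM + 0.5) more than 2 above that of the posterior-like libraries, and its lowest anterior-like value above its highest posterior-like value. Of the 63022 counted features, 3947 reached the level, 338 of those also did not overlap, and 140 met all conditions. The mirrored rule found 218 features higher in the posterior-like libraries. In CPM the median feature with a mean of 20 CPM or more was lower in the anterior-like libraries (log2 -0.45), so the sizes of these 2 sets are not compared. The difference between the gut groups chose the members, so it is described below without a test.

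The fish were Marion strain fingerlings fed for 10 weeks on diets with 0 (control), 50 (low-frass) or 300 (high-frass) g/kg of frass, the residue that remains when black soldier fly larvae are reared. Each library came from tissue pooled over several fish, with 4 libraries per diet in the intestine and 4 in the liver. The anterior-like libraries were control replicates 2 and 3, low-frass replicates 1, 2 and 4 and high-frass replicate 4. The posterior-like libraries were control replicates 1 and 4, low-frass replicate 3 and high-frass replicates 1, 2 and 3. Low-frass therefore had 3 anterior-like libraries of 4, control 2 and high-frass 1. In the liver, low-frass replicate 3 and high-frass replicate 3 were left out of the comparisons, which leaves 10 libraries. The authors left the same pools out. Nothing in the labels says whether the pools came from separate aquaria. The paper describes 4 aquaria per diet and the pooling of tissue from 4 fish sampled in each, but names no aquarium for a library. The p-values therefore measure the spread between these pools.

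The 12 intestine libraries held between 12534783 and 17371695 counts, the 10 livers between 12076582 and 15604418. Summed CPM of the markers of anterior gut enterocytes ranged from 17529 to 54930 in the anterior-like and from 1176 to 3798 in the posterior-like libraries, but 8 of the 13 markers are members themselves. Of the 7 posterior gut markers measured, amn and cubn, which form the receptor complex for protein uptake in the distal gut, and slc10a2, the ileal bile acid transporter, had lower means in the anterior-like libraries (5.83, 11.97 and 137 CPM against 505, 2264 and 1700 CPM). fabp6 and mamdc4 did not separate the gut groups. fabp6 had 6557, 2723 and 1702 CPM in control replicate 3, high-frass replicate 4 and low-frass replicate 2. In low-frass replicates 1 and 4 and control replicate 2 it had 28.1, 23.0 and 36.2 CPM. Control replicate 3 had 8319 CPM of the posterior gut markers, within the posterior-like range of 6050 to 8726 CPM. Most of that was fabp6, while its slc10a2, amn and cubn were at 697, 19.4 and 6.06 CPM. Pancreas acinar markers (cpb1 and prss1) summed to 11497, 4575, 2707, 1481, 56.9 and 17.3 CPM in the anterior-like libraries and to 12.8 to 28.0 CPM in the posterior-like ones. Hepatocyte markers summed to at most 182 CPM in any intestine library. In pooled tissue, more cells of a type and more RNA per cell cannot be told apart.

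The anterior intestine of fish takes up most of the digested peptide, sugar and fat. Enterocytes there carry peptidases and phosphatases on the brush border, move di- and tripeptides, amino acids and sugars across it, re-esterify absorbed fatty acids and export them in apolipoprotein-coated particles. In zebrafish and mammals the distal segments instead recover bile acids and, in young or stomachless animals, take up whole protein.

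All 140 members were joined to a gene of the Coco_2.0 annotation (RefSeq). 138 were protein coding, 92 carried a symbol and 48 only a locus number, for which no name or role is given here. Members lay on all 29 chromosomes, with 11 on chromosome 1, and 2 lay on unplaced sequence. Reads had been counted by transcript, so genes with several annotated transcripts received few reads. Of the members, 133 (95.0%) came from genes with 1 transcript, close to the 96.1% of the 3947 features at that level, and other genes of these pathways may be missing for that reason.

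The members together held 9.71% to 18.8% of the counts in the anterior-like libraries (median 12.4%) and 0.536% to 0.982% in the posterior-like ones. The highest share was in low-frass replicate 1 and the lowest anterior-like share in control replicate 3. Mean CPM of a member in the anterior-like libraries ran from 21.8 to 10985 with a median of 306, and 34 members had 1000 CPM or more. The 10 most abundant members made up 52.6% of the summed level, in counts that are not corrected for transcript length.

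**Figure D1:**
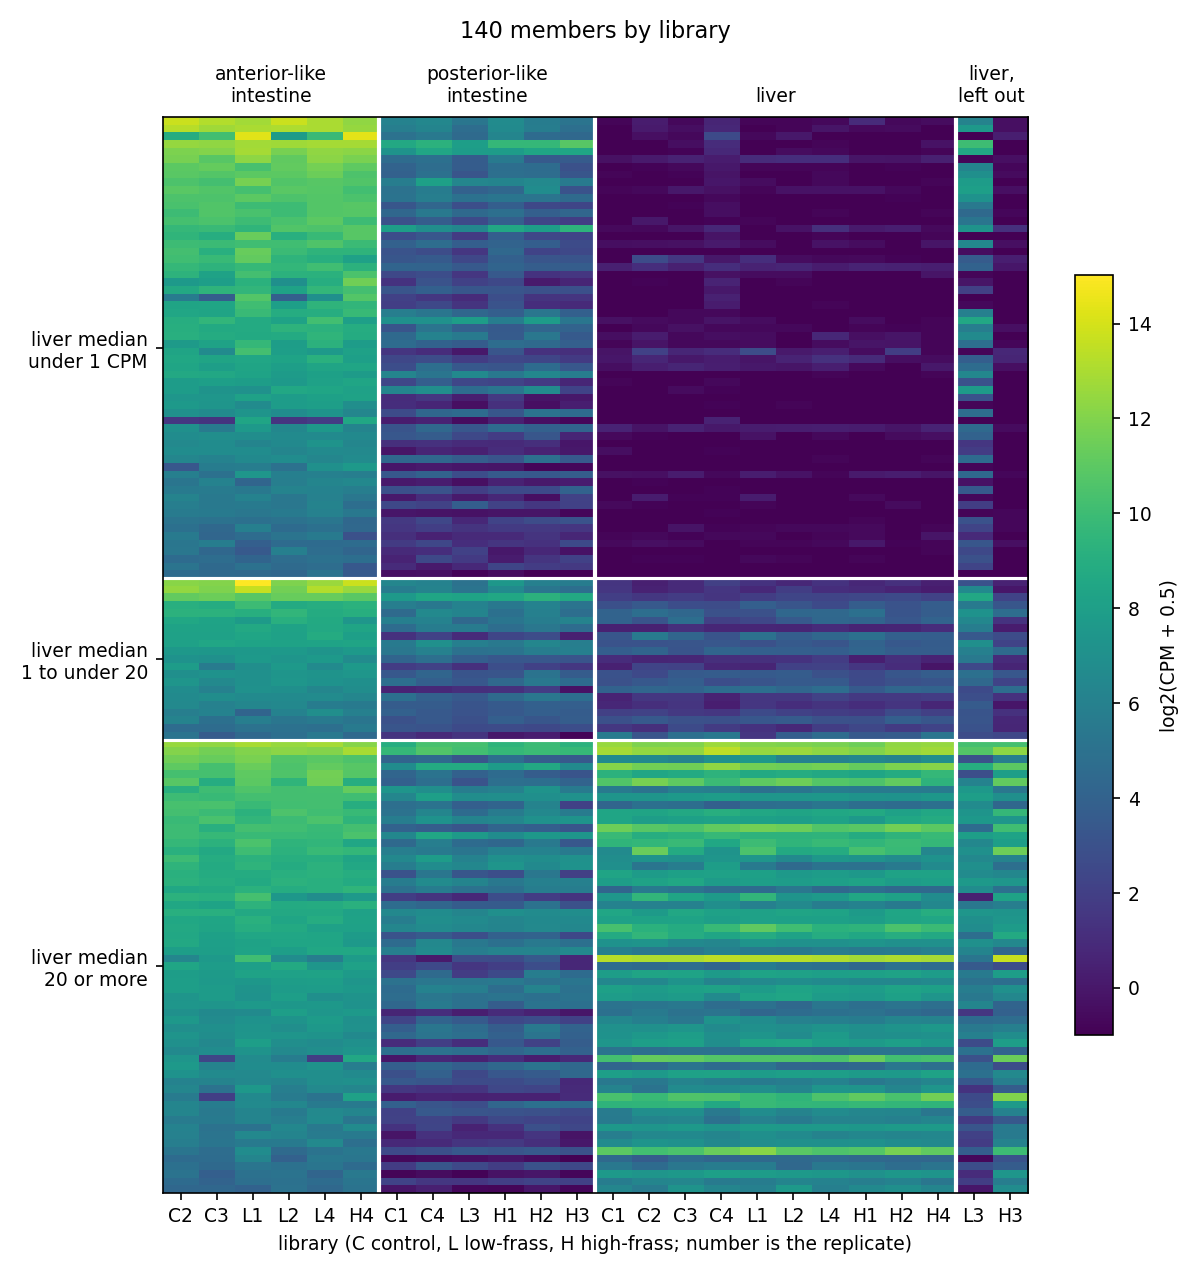
Level of each of the 140 members (rows) in each of the 24 libraries (columns), as log2(CPM + 0.5), with rows split by the median level in the 10 livers. Every member was brighter in all 6 anterior-like than in all 6 posterior-like intestine libraries, as the rule requires; 60 members were near 0 in the liver and 59 had 20 CPM or more there.

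The log2 difference between the gut groups ranged from 2.01 to 7.45 with a median of 4.17, and 52 members were above 5. The largest belonged to LOC108272994 (7.45), slc15a1a (7.35), LOC108267871 (7.28), si:ch211-161h7.8 (7.28), LOC108260872 (7.23) and rbp2a (7.23). Just inside the limit lay arsh (2.01), slc23a1 (2.04) and aldh3a2b (2.05), and just outside it iyd (1.99), tm4sf21a (1.99) and sccpdha.1 (1.97). Those 6 were picked as the nearest to the limit, so their closeness to each other is not a result. The transcripts just inside and just outside differed little in this measure. Scaling mattered here: TMM scaling raised the difference of the median feature by 0.48 (log2, over 4445 features), from -0.45 to 0.03, and the same limits then took in 196 features, all 140 members among them.

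Uptake of peptides, amino acids and sugars is described first. Both paralogs of the proton-coupled oligopeptide transporter that takes up di- and tripeptides were members. slc15a1b (chr12:14806179-14820153) had 33392 CPM in low-frass replicate 1, 13603 in high-frass replicate 4, 6169 in low-frass replicate 4, 4681 in control replicate 2, 4159 in control replicate 3 and 3905 in low-frass replicate 2, against 32.9 to 178 CPM (median 65.2) in the posterior-like libraries. It had the highest mean CPM of the members, and low-frass replicate 1 and high-frass replicate 4 stood above the other anterior-like libraries. slc15a1a (chr6:24802882-24813926) ranged from 1894 to 5088 CPM (median 3453) and from 10.9 to 47.3 CPM (median 18.6).

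slc3a1, the heavy chain of the cystine and dibasic amino acid transporter, had 2338 ± 356 CPM (SD, n = 6) in the anterior-like and 379 CPM in the posterior-like libraries. The neutral amino acid transporters slc6a19b and slc6a19a.2 had 1889 ± 808 and 1608 ± 214 CPM against 105 and 36.0 CPM. slc2a2, the basolateral glucose and fructose carrier, had 259 ± 42.8 against 19.0 CPM. In all, 6 of the 11 transporters of the list that were measured were members. The sodium-glucose cotransporter slc5a1 was not among them: its means were 3201 and 1446 CPM, and its posterior-like libraries reached 3159 CPM. slc6a18, a relative of slc6a19, went the other way, with means of 112 and 1792 CPM.

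Brush border enzymes contributed 6 of 11 measured genes. alpi.2, an intestinal alkaline phosphatase, ranged from 5189 to 7588 CPM (median 7015) against 252 to 1829 CPM (median 718). It was even across the anterior-like libraries, and among the posterior-like ones high-frass replicate 3 stood above the others.

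treh, the trehalase that splits the main blood sugar of insects, had 229 and 260 CPM in the control, 196, 246 and 290 CPM in the low-frass and 350 CPM in the high-frass anterior-like libraries. Its posterior-like values were 1.13 to 13.4 CPM (median 4.63). mep1ba, a subunit of the metalloprotease meprin, ranged from 127 to 2965 CPM (median 384), with its highest value in high-frass replicate 4. tmprss15, the enteropeptidase that activates trypsinogen, had 305 ± 80.3 CPM (SD, n = 6) against 65.6 CPM. The angiotensin-converting enzyme ace, a peptidase of the brush border that was not on the list, was the fifth member by level, with 3103 to 12633 CPM (median 5766) against 27.5 to 103 CPM. Not every peptidase did this: enpep, xpnpep2 and dpp4 had similar means in both gut groups (1210, 1569 and 1804 against 1497, 1394 and 1333 CPM).

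Fat absorption supplied 10 members of 24 measured genes, from entry to export. npc1l1, the cholesterol uptake protein, ranged from 498 to 1392 CPM (median 1198) against 3.79 to 70.3 CPM (median 23.4). cd36, a fatty acid receptor, ranged from 1469 to 2723 CPM (median 1955) against 8.997 to 29.1 CPM (median 20.6). fabp2, the intestinal fatty acid binding protein, ranged from 1303 to 3292 CPM (median 2218) against 7.34 to 27.5 CPM (median 20.7). For these uptake and carrier genes each anterior-like library had many times the level of any posterior-like library.

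The esterification enzymes were also represented. acsl5, which activates fatty acids with coenzyme A, had 512 ± 112 CPM (SD, n = 6) against 33.5 CPM, and dgat2, which makes triacylglycerol, had 139 ± 60.3 against 5.61 CPM. soat2, which esterifies cholesterol, had 532 ± 54.8 against 17.6 CPM. Of the apolipoproteins, apoa1a had 970 ± 717 against 9.54 CPM and apoc1 had 295 ± 401 against 4.49 CPM, and the large SDs reflect low-frass replicate 1, which was the highest library for both (2310 and 1102 CPM). tm4sf5 and creb3l3b, a transcription factor of lipid metabolism, completed the list. The lipoprotein assembly gene mttp (737 against 228 CPM), apoba (1400 against 598 CPM), mogat2 (388 against 119 CPM) and fabp1 (1748 against 1246 CPM) fell short of the limit. Of the 24 measured genes, 4 had the higher mean in the posterior-like libraries. They were plin2 (68.5 against 111 CPM), apoeb (138 against 153 CPM), acat2 (61.7 against 80.3 CPM) and mogat3a (3.30 against 4.92 CPM).

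Vitamin, retinoid and sterol handling gave 5 of 20. rbp2a, the cellular retinol binding protein of enterocytes, ranged from 5708 to 10194 CPM (median 8128) against 26.4 to 103 CPM (median 56.6). The other members were the sterol exporters abcg8 and abca1b, the ascorbate transporter slc23a1 and the riboflavin transporter slc52a3, with means of 141, 121, 307 and 25.2 CPM against 25.03, 15.8, 74.96 and 2.59 CPM. Among the minerals only the sodium-phosphate cotransporter slc34a2a was a member, at 543 to 2556 CPM (median 828.5) against 2.37 to 21.3 CPM, that is, 1 of 14 transcripts of 13 genes. The iron genes slc40a1 (ferroportin) and slc11a2 had higher means in the posterior-like libraries (3009 against 486 and 87.1 against 20.6 CPM).

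Of 24 measured transcripts of 23 transcription factors of the gut axis, that of gata4 alone was a member. It had 15.4 to 78.1 CPM (median 31.3) in the anterior-like libraries and 0 to 0.450 CPM in the posterior-like ones. gata4 marks the anterior small intestine in mammals. The caudal gene cdx1a was measured in both gut groups (567 and 1040 CPM), and 17 of the 24 transcripts had the higher mean in the posterior-like libraries. Many of the 24 are hox genes. In CPM the median feature with a mean of 20 CPM or more was itself lower in the anterior-like libraries (log2 -0.45). The 17 are therefore not read as a result about these factors. hoxd11a, 1 of the 17, was uneven among the anterior-like libraries. It had 16.8, 15.6 and 12.8 CPM in low-frass replicate 2, high-frass replicate 4 and control replicate 3, the libraries high in fabp6. The others had 0.12 to 1.84 CPM, and the posterior-like range was 34.3 to 67.9 CPM. None of the 8 gut hormones and none of the 7 xenobiotic enzymes measured from the lists were members. The member ugt, a UDP-glucuronosyltransferase by its symbol, was outside the symbols of the xenobiotic list.

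**Figure D2:**
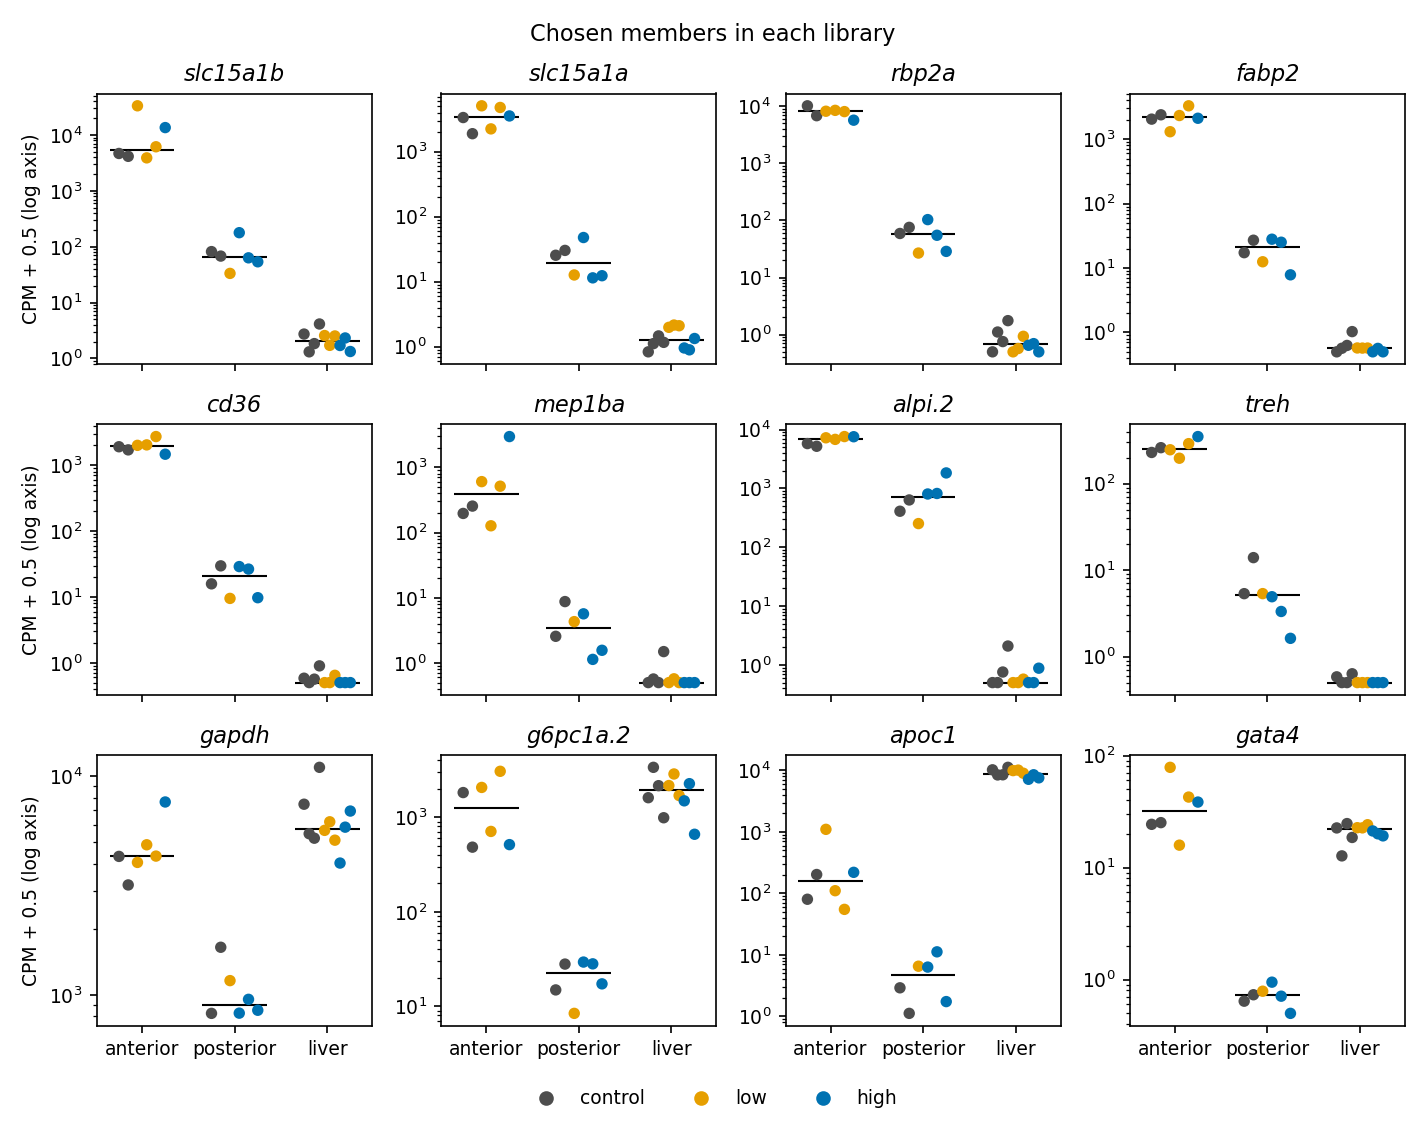
CPM + 0.5 on a log axis for 12 members in the 6 anterior-like, 6 posterior-like and 10 liver libraries; each point is a library, its colour the diet, and the line the median. The transporters, fatty acid carriers and brush border enzymes were at or near 0 in the liver, whereas gapdh, g6pc1a.2, apoc1 and gata4 were also measured there.

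Beyond the lists, and chosen after their values were seen, several members belong to sugar metabolism. The glycolytic gapdh had 4733 ± 1529 CPM (SD, n = 6) against 1048 CPM. g6pc1a.2, the glucose 6-phosphatase that releases free glucose, had 1445 ± 1050 against 20.5 CPM and was the 1 member among 6 measured genes of the urea, ammonia and gluconeogenesis list. pcxb (pyruvate carboxylase), eno3 (enolase), gpd1b (glycerol 3-phosphate dehydrogenase) and pgam2 (phosphoglycerate mutase) had means of 776, 1000, 324 and 51.4 CPM against 29.6, 186, 10.6 and 1.64 CPM. Enzymes of sphingolipid digestion were also members: enpp7.2, an alkaline sphingomyelinase, had 240 against 1.38 CPM and asah2, the neutral ceramidase, 804 against 14.7 CPM. cdo1, the cysteine dioxygenase of taurine synthesis, had 1003 ± 258 against 12.8 CPM.

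Some members were neighbours on the genome. 18 of them formed 9 pairs of adjacent genes in the annotation. alpi.2 (chr10:18299985-18311152) lay beside alpi.1 (chr10:18319678-18338689), with means of 6686 and 56.0 CPM. The annotated ends of slc6a19b and LOC108270030 on chromosome 1 overlapped. Counting ignored the strand, so reads from the overlap cannot be assigned to either gene.

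Members varied unequally among the 6 anterior-like libraries. The SD of log2(CPM + 0.5) had a median of 0.42 over the members there and 0.65 in the posterior-like libraries. It was smallest for slc5a9 (0.10), a sodium-sugar cotransporter, and prrg2 (0.12), and exceeded 1 for 13 members, led by alp3 (3.58), aqp10a (3.17) and LOC108280999 (2.79). These 3 shared a pattern in which low-frass replicate 1 and high-frass replicate 4 stood above the rest. alp3, by its symbol an alkaline phosphatase, had 343 and 378 CPM in those libraries and 2.16 to 3.05 CPM in the other 4. aqp10a, an aquaglyceroporin, had 1693 and 1695 CPM against 12.6 to 125 CPM. LOC108280999 had 20571 and 21224 CPM against 220 to 1135 CPM. Among the listed genes that were not members, pdx1, ccka and cckb were also highest in these libraries, at low level. pdx1 had 4.57 and 2.19 CPM against 0.06 to 0.29 CPM, and ccka 2.75 and 2.07 against 0.12 to 0.29 CPM. cckb had 1.64 and 1.19 CPM against 0 to 0.08 CPM. In the posterior-like libraries ccka ranged from 2.02 to 8.19 CPM and pdx1 from 0.28 to 1.12 CPM. Low-frass replicate 1 and high-frass replicate 4 were the 2 highest libraries for 21 members and the 2 lowest for 17, npc1l1 among them. In each single direction another pair had more. Low-frass replicates 1 and 4 were the 2 highest for 27 members but the 2 lowest for 1. Control replicate 3 and high-frass replicate 4 were the 2 lowest for 32 but the 2 highest for 1.

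LOC108277669 and LOC108261946 had SDs of 2.73 and 2.05. LOC108277669 had 382, 165, 108, 53.5, 3.28 and 4.66 CPM in high-frass replicate 4, control replicate 2, low-frass replicates 1, 2 and 4 and control replicate 3. The pancreas acinar markers were 11497, 4575, 2707, 1481, 56.9 and 17.3 CPM in the same order of libraries. LOC108261946 was in another order. It was highest in low-frass replicate 1 and high-frass replicate 4, with a mean of 192 CPM there and 34.0 CPM over the other 4 libraries. Control replicate 2, at 4575 CPM of acinar markers, was among those 4. Both transcripts were far more abundant in the liver (medians of 1575 and 1449 CPM), where the acinar markers summed to 25549 to 53417 CPM. The part of pancreatic tissue in these values was not tested. With only control replicate 3 and low-frass replicate 4 as the anterior-like libraries, in which the acinar markers were under 100 CPM, the rule gave 145 features. 128 of the 140 members were among them, and both of these transcripts, alp3 and gapdh were among the 12 lost. gapdh lay just under the limit, with a log2 difference of 1.88 and a mean of 3760 CPM in the 2 libraries. This choice also leaves out low-frass replicate 1 and high-frass replicate 4, which held nearly all of the alp3. Control replicate 2 and low-frass replicate 2, with 4575 and 1481 CPM of acinar markers, were within 2.16 to 3.05 CPM for alp3.

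In the posterior-like libraries, control replicate 4 had the highest value of 49 members, while high-frass replicate 3 and low-frass replicate 3 had the lowest value of 45 and 43. The median member lay 0.48 (log2) above its group mean in control replicate 4 and 0.34 and 0.33 below it in the other two. These deviations bear on the diet comparisons in this gut group, where control had 2 libraries and low-frass 1.

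**Figure D3:**
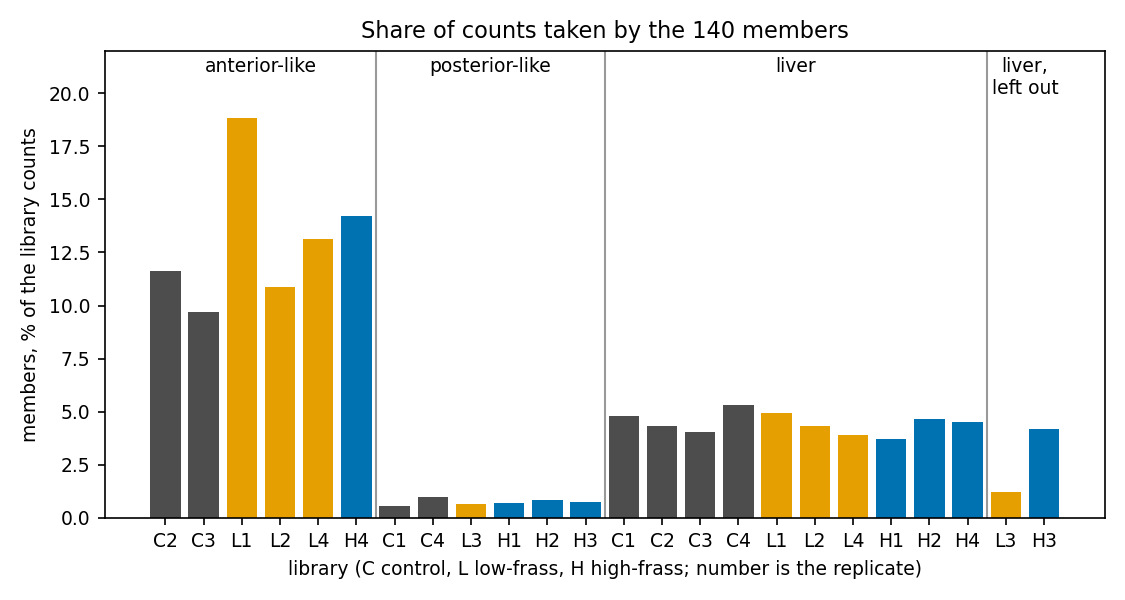
Share of each library's counts taken by the 140 members, in percent, for the 12 intestine and 12 liver libraries, with diets in colour. Anterior-like libraries held 9.71% to 18.8%, posterior-like ones under 1%, and the 10 kept livers 3.69% to 5.31%, with low-frass liver replicate 3 at 1.21%.

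Diet was first compared within each gut group, since the diets had unequal numbers of libraries in the gut groups. The libraries of a gut group still differed in their acinar and posterior gut markers, as given above. Among the anterior-like libraries, pdx1, ccka and cckb were highest in low-frass replicate 1 and in the only high-frass library, replicate 4. Such differences and diet cannot be told apart there. The test was edgeR's quasi-likelihood test with Benjamini-Hochberg adjustment over 12064 features in 1 fit of gut group by diet, and a transcript was called a DEG when its fold change exceeded 2 at an adjusted p below 0.05. In the anterior-like libraries low-frass (3 libraries) did not differ detectably from control (2 libraries): 0 of 12064 features were called (0%), 0 members among them, and all members had an adjusted p of 1 by edgeR with Benjamini-Hochberg adjustment. At an unadjusted p under 0.05 there were 7 members higher and 1 lower of 140, against 0.87% and 1.24% of all features (2.11% together). 117 members had a fitted change above 0 and 23 below, with a median of 0.33 (log2), whereas the median of all features was 0.02. With the replicate number as a block, 64 were above 0 and 76 below, with a median of -0.05. The replicate numbers were not taken to pair the libraries, so this block is an alternative fit and not a correction. DESeq2 called 9 features and 0 members.

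Members whose libraries did not overlap were 24 above and 4 below control, against 3.36% and 8.15% of the 8868 features with a mean of 1 CPM or more. ugt, by its symbol a UDP-glucuronosyltransferase, had 46.3 and 50.3 CPM in the control and 58.6, 75.7 and 102 CPM in the low-frass libraries (log2 fold change 0.81, SE 0.27, edgeR adjusted p = 1). scdb, a stearoyl-CoA desaturase, had 403 and 575 CPM and 617, 903 and 1050 CPM (log2 0.93, SE 0.33, edgeR adjusted p = 1). Both had every low-frass library above every control library, by a gap smaller than the spread among the low-frass libraries. alp3 had 2.16 and 2.47 CPM in the control and 2.22, 3.05 and 343 CPM in the low-frass libraries, so its log2 change of 5.84 (SE 2.06, edgeR adjusted p = 1) came from low-frass replicate 1 and was 0.23 without it.

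On the other side, LOC128628701 had 39.2 and 54.1 CPM in the control and 14.1, 23.9 and 24.2 CPM in the low-frass libraries (log2 change of -1.11, SE 0.42, edgeR adjusted p = 1). aldh3a2b, a fatty aldehyde dehydrogenase, had 554 and 563 CPM and 406, 410 and 416 CPM (log2 -0.36, SE 0.22). tmprss15 had 384 and 408 CPM and 222, 273 and 321 CPM (log2 -0.44, SE 0.34, and -0.25 without low-frass replicate 2). None of the 3 passed the test, although no control library overlapped a low-frass library for any of them. By list, the fitted change was above 0 for 9 of 10 fat absorption members (median 0.34), 5 of 6 brush border enzymes (0.44), 5 of 6 transporters (0.61) and 5 of 5 vitamin, retinoid and sterol members (0.42), and none of these members had an unadjusted p under 0.05. Over all 140 members 117 were above 0 (median 0.33), and of all features 53.36% were (median 0.02). The members of a list were measured in the same libraries, so they are not replicates of the diet.

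In the posterior-like libraries high-frass (3 libraries) was set against control (2). Again 0 of 12064 features (0%) and 0 members were called, and the smallest member's adjusted p was 0.564 by edgeR with Benjamini-Hochberg adjustment. At an unadjusted p under 0.05 there were 6 members higher and 7 lower, against 2.15% and 2.47% of all features (4.62% together), and the median member changed by -0.14 against -0.01 for all features. That median was 0.37 without control replicate 4, 0.03 without high-frass replicate 3 and -0.46 without control replicate 1, so its sign depended on single libraries. Of the 130 members with a mean of 1 CPM or more in these 5 libraries, 7 lay above and 9 below control without overlap, against 11.6% and 10.2% of all 9368 such features. Members were tested here because of their anterior-like level, and 135 passed the count filter on the posterior-like libraries alone.

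sec14l8 had 17.4 and 28.3 CPM in the control and 8.35, 9.67 and 9.81 CPM in the high-frass libraries (log2 change of -1.32, SE 0.27, edgeR adjusted p = 0.564). DESeq2 called it (adjusted p = 0.0211, with a range of 0.000467 to 1 over all alternatives), the 1 member among the 21 features it called. treh had 4.84 and 13.4 CPM and 1.13, 2.82 and 4.42 CPM (log2 -1.77, SE 0.54, edgeR adjusted p = 0.966). mat1a, the methionine adenosyltransferase of liver, had 1.40 and 2.21 CPM and 0.0592, 0.524 and 0.706 CPM (log2 -2.09, SE 0.73). All 3 were low in the high-frass libraries without overlap, but without control replicate 4 the log2 values of sec14l8 and treh were -0.76 and -0.66.

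On the other side was LOC108274607, with 9.01 and 14.7 CPM in the control and 19.3, 23.9 and 29.9 CPM in the high-frass libraries (log2 1.06, SE 0.35). A member known only by a clone-based symbol had 0.622 and 1.495 CPM and 2.66, 3.03 and 4.57 CPM (log2 1.70, SE 0.42). dgat2 had 1.57 and 3.42 CPM and 4.02, 10.1 and 12.8 CPM (log2 1.84, SE 0.64). Each had an adjusted p of 0.966 by edgeR with Benjamini-Hochberg adjustment and no overlap between diets. dgat2 catalyses the last step of triacylglycerol synthesis.

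The other within-group comparisons rest on a single frass library. High-frass replicate 4 against 2 controls in the anterior-like group gave 0 calls of 12064 (0%) and 14 members higher and 3 lower at an unadjusted p under 0.05, against 3.08% and 4.26% of all features (7.34% together). Among them LOC108267671, a long non-coding RNA beside tm4sf5, had 24.5 to 24.7 CPM in the control and 48.9 CPM in the high-frass library (log2 1.19, SE 0.25, edgeR adjusted p = 0.677), and DESeq2 called it. Low-frass replicate 3 against 2 controls in the posterior-like group gave 0 calls (0%) and 1 member higher and 4 lower, against 1.68% and 2.01% (3.7% together), and a median of -0.60 that was -0.09 without control replicate 4.

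The difference between gut groups in the effect of diet was tested as an interaction. For low-frass 0 of 12064 features (0%) and 0 members passed. 13 members at an unadjusted p under 0.05 had a more positive fitted change in the anterior-like than in the posterior-like group. The reverse held for 2. The shares of all features were 1.99% and 2.03% (4.02% together). A more positive change need not be a larger one. The median member changed by 0.33 in the anterior-like group and by -0.60 in the posterior-like group, where low-frass had 1 library. For high-frass the calls were again 0 (0%), with 16 and 6 members against 3.71% and 4.34% (8.06% together). Both interactions rest on a cell with 1 library. DESeq2 called 0 members among 6 features for the low-frass and 3 among 37 for the high-frass interaction (LOC128628919, tm4sf4 and gapdh), whose edgeR adjusted p was 0.603 each with Benjamini-Hochberg adjustment.

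Diet was then compared over the whole intestine, without regard to gut group. With low-frass 139 of 140 members had a fitted change above 0 (median 0.80), against 54.19% of all 10401 features tested (median 0.03). With high-frass 113 had one below 0 (median -0.62), while 49.45% of all features had one above 0 (median 0.00). The rule chose members high in the anterior-like libraries, of which low-frass had 3, control 2 and high-frass 1. These directions are therefore not independent of the rule. 0 features were called in either (0%), and at an unadjusted p under 0.05 there were 0 members for low-frass and 1 for high-frass, alp3, against 1.04% and 2.84% of features. By direction the background was 0.413% higher and 0.625% lower for low-frass, and 1.81% higher and 1.03% lower for high-frass. With the gut group as a term in the fit, the medians were 0.04 and 0.07, and 80 and 79 of 140 members were above 0. Single libraries moved these medians: for high-frass from -3.43 without replicate 4, the 1 anterior-like library of that diet, to -0.06 without control replicate 2 (64 members above 0 and 76 below), with -0.98 and -0.22 without control replicates 1 and 3 and -0.30, -0.36 and -0.34 without high-frass replicates 1, 2 and 3. For low-frass the median was 0.45, 1.42, 1.28 and 0.49 without control replicates 1 to 4 in turn and 1.21 without low-frass replicate 3. Low-frass and high-frass share the control libraries, so these values are not independent of each other.

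**Figure D4:**
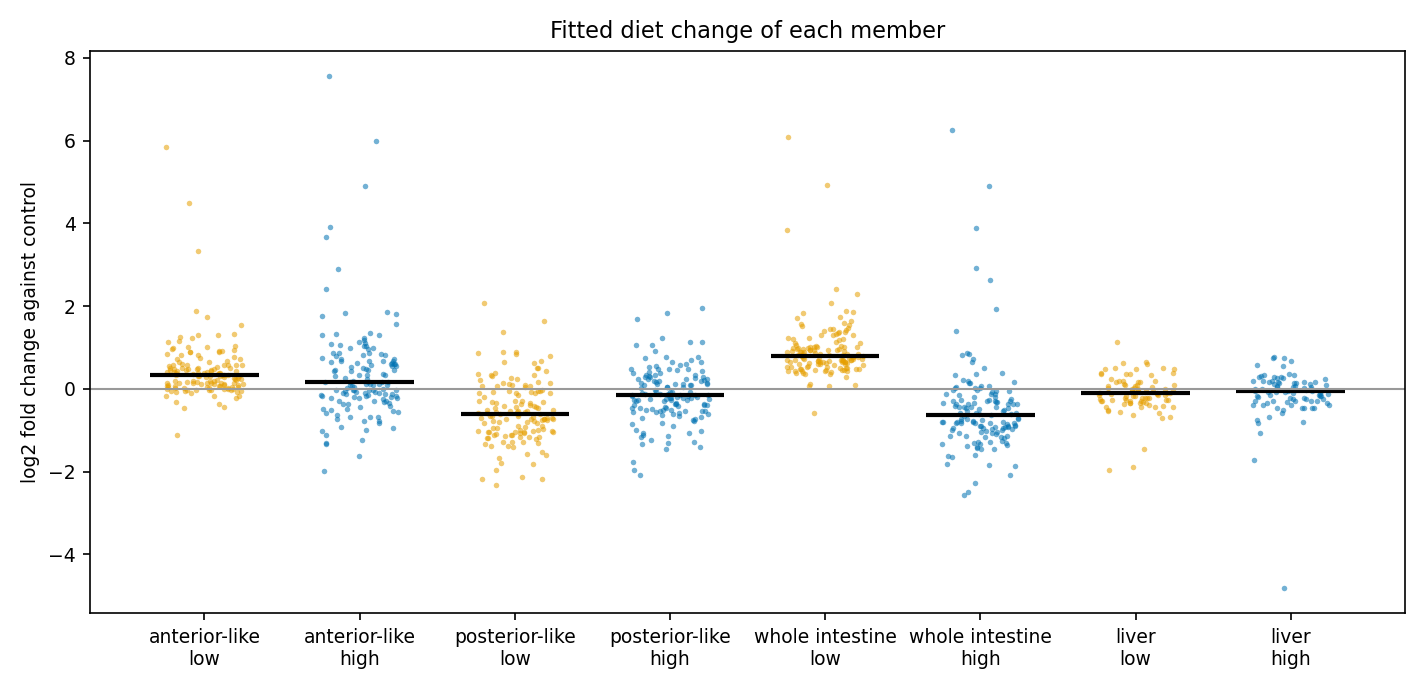
Fitted log2 fold change of each member against control, within each gut group, over the whole intestine and in the liver; each point is a member and the black line the median. Medians were 0.33, 0.16, -0.60 and -0.14 within the gut groups, 0.80 and -0.62 over the whole intestine, and -0.11 and -0.06 in the liver, where 88 members passed the count filter.

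In the liver the members split by level. In the 10 livers 60 members had a median under 1 CPM, 21 had 1 to under 20 CPM and 59 had 20 CPM or more. The 60 made up 42.9% of the members, against 9.17% of the 3947 features of the same anterior-like level and 45.9% of the 218 features of the mirrored rule, so scarcity in the liver went with both gut sets. 7 members had no count in any of the 10 livers: slc34a2a, enpp7.2, creb3l3b, fasn2, LOC108269470, LOC108257774 and the member with a clone-based symbol described above. A count of 0 says only that the transcript was not detected at this depth.

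Transport, brush border and fatty acid carrier genes were among the scarce ones. Liver medians were 0.17 CPM for rbp2a, 0.07 CPM for fabp2 and 0 CPM for cd36, alpi.2, treh, slc6a19b and slc6a19a.2. slc15a1b and slc3a1 were a little above 1 CPM (1.59 and 3.75 CPM). slc2a2, by contrast, had 286 CPM in the liver and 259 CPM in the anterior-like intestine, and soat2, abcg8 and dgat2 had liver medians of 276, 136 and 253 CPM.

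Among the members with the highest liver medians were apoc1 (8756 CPM), gapdh (5769 CPM), LOC108255972 (3242 CPM), cdo1 (2210 CPM), LOC128628771 (1973 CPM) and g6pc1a.2 (1930 CPM). Several serve sugar and lipoprotein metabolism, which liver and anterior gut both carry out. gapdh ranged from 4020 to 11010 CPM in the livers and from 3193 to 7646 CPM in the anterior-like libraries, and g6pc1a.2 from 661 to 3380 and from 482 to 3068 CPM, so the tissues overlapped for both. apoc1 ranged from 7182 to 11235 CPM in the livers, above its highest anterior-like value of 1102 CPM. In all, 101 of 140 members were lower in every liver than in every anterior-like library, against 84.6% of the 3947 features of that level, 28 overlapped, and 11 were higher in every liver, against 2.63%, cdo1, apoc1, LOC108277669, LOC108261946, LOC128628771 and rhoua among them. The liver libraries held pancreas acinar markers throughout, so hepatocytes and pancreas cannot be told apart as the source.

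**Figure D5:**
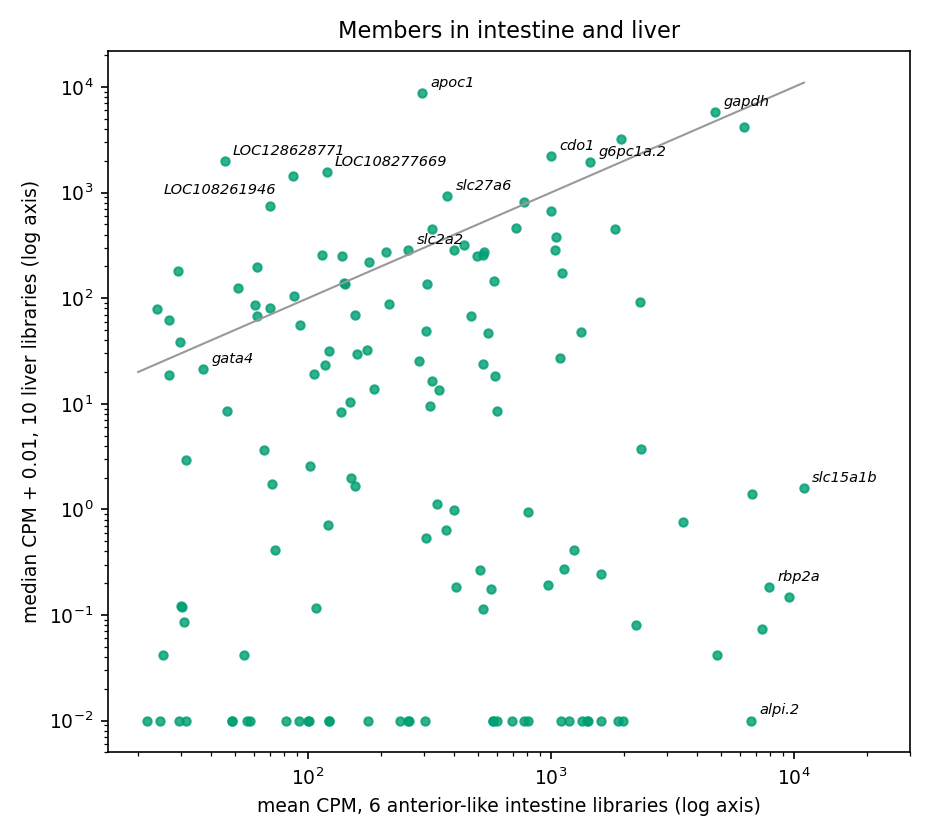
Mean CPM in the 6 anterior-like intestine libraries against median CPM + 0.01 in the 10 livers for each member, both on log axes, with the line of equal values. 27 of the 140 members lay above the line (5.9% of the 3947 features of that level did), apoc1 farthest up at 8756 CPM, and the row at the bottom holds members with a liver median of 0.

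No member passed the test for diet in the liver. Of the 140 members, 88 passed the count filter, and 0 of 7213 features (0%) were called for low-frass or high-frass by edgeR with Benjamini-Hochberg adjustment. At an unadjusted p under 0.05 there were 2 members higher and 2 lower for low-frass, against 1.23% and 1.46% of features (2.69% together), and 3 higher and 1 lower for high-frass, against 2.04% and 3.15% (5.19% together). The median member changed by -0.11 and -0.06, and the median of all features by -0.02 and -0.01. DESeq2 called 0 and 5 features, none of them members.

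The members with the smallest p in the low-frass liver were ucp1 and slc13a5a. ucp1, the mitochondrial uncoupling protein, had 37.7, 55.1, 128 and 243 CPM in the control and 22.5, 34.5 and 46.4 CPM in the low-frass livers (log2 change of -1.96, SE 0.63, edgeR adjusted p = 0.9997). slc13a5a, a citrate transporter, had 18.5, 22.2, 25.01 and 26.0 CPM and 30.3, 34.5 and 51.9 CPM (log2 0.62, SE 0.21). The ucp1 values of the diets overlapped and those of slc13a5a did not, and the values were -1.22 for ucp1 without control replicate 4 and 0.36 for slc13a5a without low-frass replicate 1. bco1l, a carotenoid oxygenase relative, had 30.1, 31.8, 35.6 and 45.3 CPM and 19.3, 24.8 and 29.4 CPM (log2 -0.70, SE 0.27), also without overlap. slc15a1a (log2 1.14) was under 2 CPM in all of these livers and dgat2 had a fitted change of 0.49, and neither passed the test.

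With high-frass, slc3a1 had 2.25, 2.58, 3.08 and 3.48 CPM in the control and 4.01, 4.91 and 5.49 CPM in the high-frass livers (log2 0.75, SE 0.25, edgeR adjusted p = 0.934). slc5a9 had 7.95, 8.09, 9.04 and 9.88 CPM and 10.2, 12.4 and 16.4 CPM (log2 0.57, SE 0.25, edgeR adjusted p = 0.949). Both were higher in every high-frass liver, and the value of slc5a9 was 0.25 without high-frass replicate 1. LOC108261946 had 934, 1370, 1511 and 1536 CPM and 1395, 2242 and 3161 CPM (log2 0.74, SE 0.32). apoa1a had 0, 0.530, 2.56 and 5.84 CPM and 0, 0.0654 and 0.151 CPM (log2 -4.80, SE 1.55, edgeR adjusted p = 0.934). It was this sparse in all 10 livers compared, although it ranged from 285 to 2310 CPM in the anterior-like intestine. rbp4l was at under 1.1 CPM in all of these livers. apoc1 had 8453 to 11235 CPM in the control and 7182 to 8504 CPM in the high-frass livers (log2 -0.35, edgeR adjusted p = 0.966), a value of -0.21 without control replicate 4, and did not pass the test.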

How the data were processed

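Whole-number counts per transcript had been deposited for 12 intestine and 12 liver libraries of 63022 features each. The authors made these counts from poly(A) RNA reads with Trimmomatic 0.38, STAR 2.7.8a (genome Coco_2.0) and HTSeq 0.9.0 (exons grouped by parent, no strand, union mode), without normalization, as the study's methods and processing notes give. Reads shared by transcripts of a gene are then lost. Symbols and coordinates came from the RefSeq table of Coco_2.0, which matched 63009 features. CPM used the library total, with 0.5 added before log2. Diet was tested in edgeR 4.0.16 (R 4.3.3; TMM, default filter with a minimum of 10 counts, quasi-likelihood, Benjamini-Hochberg), with DESeq2 1.42.0 as an alternative and the scripts tested on simulated data. SE is the log2 fold change over the root of F. The alternatives were other size factors, no filter, a replicate block, gut group as a block, only the libraries of a gut group, all 12 livers, left-out libraries and other limits of the rule, and 1 alternative was chosen after seeing the data (anterior-like libraries with few acinar markers).

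Members, function lists and marker lists were chosen with earlier results of these data known. List genes were matched by symbol, with a paralog letter or number allowed, and a listed gene counted as measured at 1 CPM or more in any library. Named were the 10 most abundant members, the 6 with the largest difference, 3 on either side of its limit, up to 4 per list, up to 3 per direction with the smallest p in the comparisons of 3 libraries against 2 and in the liver, and the 6 highest in the liver. Others were named after their values were seen, and 2 members that the rule names are not reported here. The rule also names 2 features to leave out (cidec and zgc:162608), neither of which met it.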

Additional observations from a re-analysis of the deposited data

Results flagged for a closer look

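Of 28 groups of libraries examined for a library far from the others, 4 held one. The groups share libraries and include values that chose the members, so this count is not set against a chance rate. In the high-frass intestine the members summed to 142023 CPM in replicate 4, the anterior-like library of that diet, and to at most 8505 CPM in the other 3. The rule fixed this gap in advance. slc15a1b had 33392 CPM in low-frass replicate 1, and the next anterior-like library had 13603 CPM. Among the posterior-like libraries slc15a1b had 178 CPM in high-frass replicate 1 (next 81.4 CPM), and alpi.2 had 1829 CPM in high-frass replicate 3 (next 818 CPM).

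Low-frass liver replicate 3, which the liver comparisons leave out, held 4095 CPM of the 60 members that had a liver median under 1 CPM, while the other 11 livers held at most 28.0 CPM. In that library alpi.2 had 1041 CPM and rbp2a 203 CPM. Over all members it lay within the range of the posterior-like intestine libraries for 51, above it for 67 and below it for 22, and above the lowest anterior-like library for 4. Its hepatocyte markers summed to 693 CPM, against 146925 to 237229 CPM in the 10 livers, and its posterior gut markers to 6490 CPM.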

How the results depend on the processing

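Depth and replicate number limit these comparisons: within the gut groups the tests had 3 libraries against 2 or 1 against 2, and where a library left out leaves a lone one, that one is assumed to vary like the other groups. The gut groups were read from the counts, so position along the intestine and any other difference between these pools cannot be told apart.

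Without a count filter (23727 intestine and 17475 liver features) the members called rose from 0 to 14 (anterior-like, low-frass), 15 (anterior-like, high-frass), 6 (posterior-like, low-frass), 14 (posterior-like, high-frass), 19 and 22 (low- and high-frass interactions) and 3 in each liver comparison; the cause was not tested. Over all features the calls were 129, 159, 117, 204, 132 and 163 in the same order, and 60 and 133 in the liver for low- and high-frass. alp3, whose low-frass change rests on 1 library, was among the 14 called there. DESeq2's Wald test called 1 member (anterior-like, high-frass), 1 (posterior-like, high-frass) and 3 (high-frass interaction), of 26, 21 and 37 features called. Leaving out 1 library gave 0 to 1 members called for the anterior-like high-frass comparison and for the high-frass interaction (alp3, without low-frass replicate 1), and 0 in each other comparison. Of the named members, apoc1 in the high-frass liver reversed to 0.070 with all 12 livers.

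The number of members was 243 with a difference above 1, and otherwise from 97 (difference above 3) to 196 (TMM scaling), with 138 to 167 when a library was left out. The median liver level was 6.07 CPM, 9.09 CPM with the 10 most abundant features left out of the totals, and 5.53 to 6.25 CPM when a library was left out.

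Same-numbered libraries did not all deviate together. After removal of diet means, intestine r lay between -0.68 and 0.49, positive within and negative across gut groups. After removal of the means of diet within gut group it lay between -0.15 and 0.18 (0.18, 0.13 and 0.08 for replicate 2), and in the liver between -0.19 and 0.29. Not every pair exceeded 0.1, so the numbers were not taken to pair the libraries. With a replicate block 0 members were called in each comparison, and the medians were -0.05 (anterior-like, low-frass), -0.55 (anterior-like, high-frass), 0.33 (posterior-like, low-frass), 0.19 (posterior-like, high-frass), 0.37 and -2.29 (whole intestine), and -0.08 and -0.09 (liver).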

Other observations

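The 38 features that met the level and difference limits but overlapped between the gut groups included the pancreatic enzymes ela2l, ela3l, prss1, cpb1, c6ast4 and pla2g1b. ela2l, an elastase, averaged 2241 CPM in the anterior-like and 13.1 CPM in the posterior-like libraries, with 11.3 CPM in its lowest anterior-like library, and its liver median was 29482 CPM. plb1, a phospholipase of the brush border in mammals, was different among them: it averaged 928 and 18.7 CPM with a lowest anterior-like value of 53.1 CPM, and its liver median was 0 CPM. Of the gut hormones, ghrl, which encodes ghrelin, had means of 10.3 and 0.278 CPM, and insl5a, insulin-like peptide 5, 37.5 and 175 CPM, the reverse order.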
